A study of Mus musculus with 12 samples.

Results

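The 10 genes described here encode enzymes and partner proteins that turn arachidonic acid into prostaglandins, thromboxane and leukotrienes. They are *Pla2g4a*, *Ptgs1*, *Ptgs2*, *Ptges*, *Ptges2*, *Ptges3*, *Tbxas1*, *Alox5*, *Alox5ap* and *Lta4h*, chosen by name out of 22243 genes with a principal isoform in the abundance table, and each was represented by 1 transcript. RNA was sequenced from 12 cultures of M1-activated bone marrow-derived macrophages (BM-Mɸs), 1 from an ErbB4myeKO mouse and 1 from an ErbB4FF littermate in each of 6 litters. All mice had a C57Bl/6 background and floxed *ErbB4*, and the ErbB4myeKO mice also carried LysMCre, a recombinase expressed from the lysozyme M locus, which is active in myeloid cells at large and not in macrophages alone. All 12 cultures were grown in conditioned medium with M-CSF, given IFN-γ (100 U/mL) for 16 h and then LPS (100 ng/mL) for 6 h, so every level below is that of an activated cell. The age and sex of the mice were not on the labels. Values are TPM, the abundance of a transcript relative to all others in its library, which are scaled for transcript length, so levels can be set side by side between genes as levels of their principal transcripts.

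In this pathway, cytosolic phospholipase A2 frees arachidonic acid from membranes, and a cyclooxygenase turns it into prostaglandin H, the common precursor from which terminal synthases make prostaglandin E, prostacyclin, thromboxane and other prostanoids. In a separate branch, 5-lipoxygenase, helped by its activating protein, makes leukotriene A from the same fatty acid, and leukotriene A hydrolase converts it to the neutrophil attractant leukotriene B. Macrophages stimulated with LPS are known for strong induction of the cyclooxygenase *Ptgs2* and the prostaglandin E synthase *Ptges*.

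The libraries held between 10214 and 12985 genes above 0 TPM. *Erbb4* lay between 0.28 and 0.852 TPM in libraries labelled ErbB4myeKO and between 0.372 and 0.716 TPM in those labelled ErbB4FF, and was higher in the library labelled ErbB4myeKO in 4 of 6 litters. The floxed segment of its transcript was not given in the sources used here, so its TPM do not check the deletion, and samples are named by their labels. *Lyz2*, the gene of the locus that carries LysMCre, was lower in the library labelled ErbB4myeKO in 5 of 6 litters (5305 ± 1985 and 8277 ± 3445 TPM, SD, n = 6, log2 ratio -0.59, limma adjusted p = 0.641). The principal transcripts took 71.4% and 74.7% of all TPM in litter 5 and between 59% and 64.9% in the other litters, and the libraries of litter 3 listed the most tested genes at 0 (535 in the one labelled ErbB4myeKO and 292 in its littermate). All 10 macrophage markers passed the filter, with a summed level of 7384 to 16096 TPM led by *Lyz2*, *Cd14* and *Adgre1*, and 4 had a positive and 6 a negative mean log2 ratio. Chosen after their values were seen, *Fcgr1* was lower in the library labelled ErbB4myeKO in 6 of 6 litters (log2 ratio -0.86, limma adjusted p = 0.603, unadjusted 0.00987) and *Mertk* higher in 6 of 6 (0.14, limma adjusted p = 0.642). The summed levels of other cell types' markers were 64.4 to 418 TPM for 12 neutrophil genes (*Retnlg* was at 0 in every library, and *S100a8*, *S100a9* and *Csf3r* were highest), 11.5 to 47.9 TPM for 11 mast cell and basophil genes (*Cma1*, *Fcer1a*, *Mcpt4*, *Ms4a2*, *Tpsab1* and *Tpsb2* at 0 in every library), 4.95 to 47.5 TPM for 8 platelet genes, 5.17 to 21.8 TPM for 5 eosinophil genes, 0 to 3.33 TPM for 8 lymphocyte genes and 2.78 to 92.9 TPM for 6 fibroblast genes. In RNA from whole cultures, fewer cells of a type cannot be told apart from less RNA per cell.

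Among the members, *Ptgs2* stood far above the others. Its mean over the 12 libraries was 3562 TPM (rank 22 of all genes), against 99.9 TPM for *Ptges*, 63.8 TPM for *Alox5ap*, 61.7 TPM for *Pla2g4a*, 60.7 TPM for *Ptges3* and 54.6 TPM for *Tbxas1*. *Lta4h* (7.63 TPM), *Ptgs1* (2.73 TPM) and *Ptges2* (1.43 TPM) were far lower, and the principal transcript of *Alox5* was listed at 0 in all 12 libraries. In each group of 6 libraries the genes were put in the order of that group's own means, and neighbours were compared within libraries on log2(TPM + 0.5), where 0.0312 is the smallest p an exact two-sided permutation test can give. *Ptgs2* exceeded *Ptges* in all 6 libraries of each group, by 4.54 ± 0.82 (SD, n = 6) on the log2 scale in those labelled ErbB4FF and by 5.15 ± 0.81 in those labelled ErbB4myeKO (exact permutation p = 0.0312 in each, 0.0938 adjusted over 9 neighbouring pairs). Of the 9 pairs, 1 was *Ptges2* against *Alox5*, whose result was fixed by the zeros of *Alox5*, and over the 8 pairs without it, a choice made after the data were seen, the adjusted p was 0.125. *Tbxas1* exceeded *Lta4h* in all 6 libraries of each group as well, by 2.80 ± 0.63 and 2.79 ± 0.85 (exact permutation p = 0.0312 in each, 0.0938 adjusted over 9 pairs and 0.125 over 8). Between these steps the order was *Ptges*, *Alox5ap*, *Pla2g4a*, *Ptges3* and *Tbxas1* in libraries labelled ErbB4FF and *Ptges*, *Ptges3*, *Pla2g4a*, *Alox5ap* and *Tbxas1* in those labelled ErbB4myeKO. In neither order did neighbours differ beyond what the exact permutation test could separate from the spread between libraries, nor did *Ptgs1* from *Ptges2*. *Lta4h* exceeded *Ptgs1* in 5 of 6 libraries of each group, by 1.57 ± 1.43 in those labelled ErbB4FF and by 1.68 ± 1.25 in those labelled ErbB4myeKO (exact permutation p = 0.0625 in each, 0.141 adjusted over 9 pairs and 0.167 over 8). No pair passed an adjusted p under 0.05 over 9 pairs or over 8. With a smallest p of 0.0312, that threshold can be met only if most of the pairs reach this smallest p. A single pair could therefore not pass by itself, however large its difference. The order is that of 1 transcript per gene, and the share of its 31-base words that also occur in other transcripts of the gene was 4.57% for *Ptgs2* and between 15.2% and 99.2% for the others, highest for *Pla2g4a* (99.2%), *Tbxas1* (97.4%) and *Ptgs1* (94.8%).

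**Figure D1:**
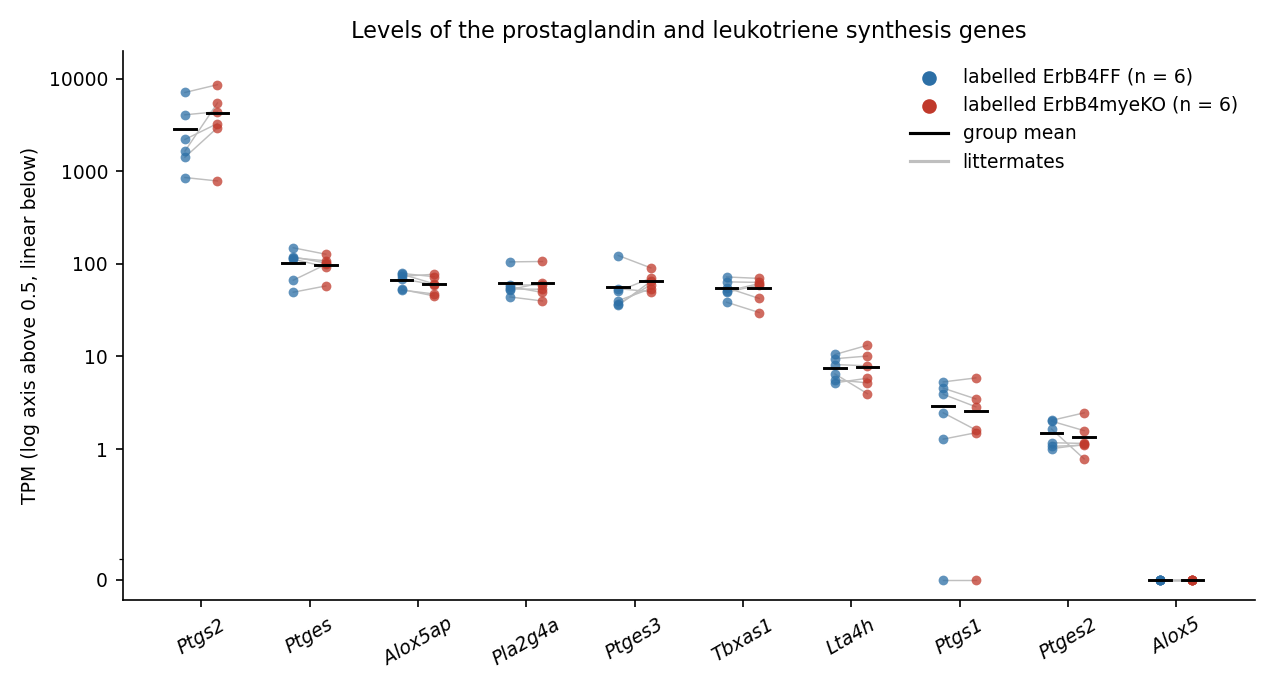
TPM of the 10 genes in each library, on an axis that is logarithmic above 0.5 TPM and linear below. Points are libraries labelled ErbB4FF (blue, n = 6) or ErbB4myeKO (red, n = 6), grey lines join littermates and black bars are group means. *Ptgs2* lies between 785 and 8599 TPM, above every other gene in every library, and *Alox5* lies at 0.

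Genotype was tested across the 8780 genes that averaged 1 TPM or more, with limma on log2(TPM + 0.5) and litter as a block. No gene passed a Benjamini-Hochberg adjusted p under 0.05 (0% of those tested, smallest adjusted p 0.603), and 721 genes, or 8.21%, had an unadjusted p under 0.05. Of the 10 members, 9 passed the filter on level and *Alox5* did not. None of the 9 passed the adjusted threshold, 2 had an unadjusted p under 0.05 (*Ptgs2*, higher in the libraries labelled ErbB4myeKO, and *Alox5ap*, lower), 2 had a positive and 7 a negative mean log2 ratio (4 and 5 with all libraries rescaled to the same total), and none went the same way in all 6 litters, which 4.82% of all genes tested did. The median log2 ratio of the members was -0.04, against -0.00 for all genes tested, 49.8% of which had a positive ratio. Over 10085 transcripts, where 6.72% had an unadjusted p under 0.05, *Ptgs2* and *Alox5ap* each had an adjusted p of 0.685 in limma (0.0393 and 0.0521 unadjusted).

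**Figure D2:**
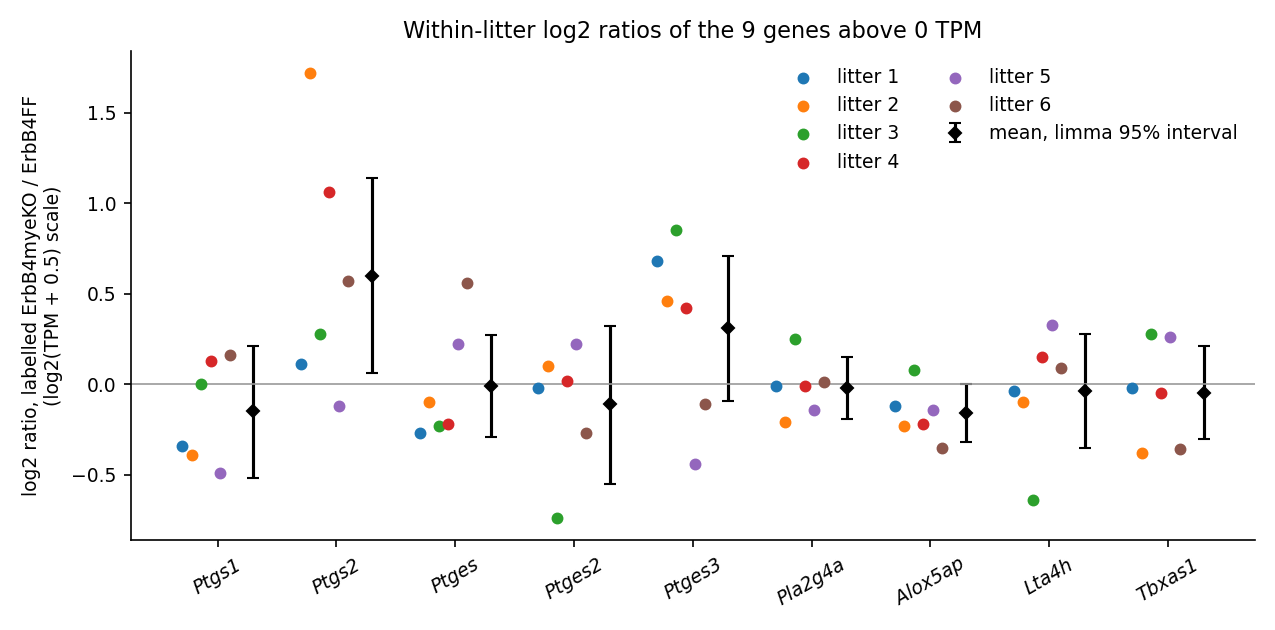
Log2 ratio of the library labelled ErbB4myeKO to its littermate labelled ErbB4FF, on the log2(TPM + 0.5) scale, for the 9 genes above 0 TPM. Coloured points are the 6 litters, and black diamonds with bars are the mean and its limma 95% interval. The interval lies above 0 for *Ptgs2* (0.06 to 1.14), reaches up to -0.00 for *Alox5ap* and spans 0 for the other 7 genes.

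*Pla2g4a* (ENSMUSG00000056220, GRCm38 chr1:149829618-149961290, minus strand) encodes cytosolic phospholipase A2, which releases arachidonic acid. Its level was between 39.7 and 106 TPM, with a median of 56 TPM in libraries labelled ErbB4myeKO and 55.1 TPM in those labelled ErbB4FF. The 2 libraries of litter 6 held 106 and 105 TPM, above all 10 others, which lay at or under 62.7 TPM, and the within-litter log2 ratios stayed between -0.21 and 0.25. Litters accounted for 96.9% of the sum of squares of its log2 values, against a median of 78.1% over all genes tested and 45.5% where litters have no effect. The log2 ratio averaged -0.02 ± 0.16 (SD, n = 6 litters, exact permutation p = 0.844), with a limma 95% interval of -0.19 to 0.15 and an adjusted p of 0.945.

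*Ptgs1* and *Ptgs2* encode the 2 cyclooxygenases, of which the first is usually constitutive and the second is induced by inflammatory stimuli. Their sequences around the start of transcription are shown for their difference in short promoter motifs. The RefSeq sequences below (GRCm38.p6, plus strand for both genes) run from 250 bases before to 50 bases after the start, with chr1:150099781-150100080 for *Ptgs2* and chr2:36230176-36230475 for *Ptgs1*. Capitals mark the motifs found on either strand in a search for the TATA box (TATAAA), E-box (CACGTG), cyclic AMP response element core (ACGTCA), C/EBP (TTGCNNAA), GC box (GGGCGG) and PU.1 (GAGGAA) motifs and the NF-kB consensus.
Ptgs2: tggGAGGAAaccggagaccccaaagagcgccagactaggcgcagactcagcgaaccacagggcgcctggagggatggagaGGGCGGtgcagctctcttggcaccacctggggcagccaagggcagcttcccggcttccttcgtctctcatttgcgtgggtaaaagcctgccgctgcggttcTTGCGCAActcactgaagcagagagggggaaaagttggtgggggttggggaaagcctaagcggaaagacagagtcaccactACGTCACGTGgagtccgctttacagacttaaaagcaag
Ptgs1: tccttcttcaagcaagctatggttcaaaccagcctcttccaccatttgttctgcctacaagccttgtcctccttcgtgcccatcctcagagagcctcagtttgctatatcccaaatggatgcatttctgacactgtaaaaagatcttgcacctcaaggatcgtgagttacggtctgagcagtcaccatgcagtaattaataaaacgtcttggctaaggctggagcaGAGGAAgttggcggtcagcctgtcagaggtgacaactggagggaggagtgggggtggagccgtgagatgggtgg
The *Ptgs2* sequence held 5 of the 7 motifs, the most of the 9 members with a promoter sequence. They were PU.1 at -247, the GC box at -170, C/EBP at -69, and the response element core at 13 overlapping the E-box at 17. Positions count the start base as 1 and the base before it as -1. The *Ptgs1* sequence held the PU.1 motif alone, at -24. Of 32851 mouse promoters of the same length, 28.3% held the PU.1 motif, 35.7% the GC box, 10.8% C/EBP, 7.51% the response element core, 7.15% the E-box, 13.6% the TATA box and 8.46% the NF-kB consensus. Among the 9 members with a promoter in the RefSeq table, 6 held PU.1, 4 the GC box, 2 the E-box, 2 the TATA box (in *Pla2g4a* 38851 bases downstream of the start of the principal transcript, and in *Tbxas1*) and 1 each C/EBP, the response element core and the NF-kB consensus, the last in *Ptges3*. A match of letters is not evidence of binding.

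*Ptgs2* (ENSMUSG00000032487, chr1:150100031-150108227, plus strand) held, in litters 1 to 6, 4396, 5455, 8599, 2953, 785 and 3274 TPM in libraries labelled ErbB4myeKO. The littermates labelled ErbB4FF held 4068, 1651, 7090, 1417, 855 and 2204 TPM. Litter 3 was the highest and litter 5 the lowest of both groups, the groups overlapped over most of their range, and the library labelled ErbB4myeKO exceeded its littermate in every litter but litter 5 (5 of 6). The within-litter log2 ratios were 0.11, 1.72, 0.28, 1.06, -0.12 and 0.57, so the pair in litter 2 was the furthest apart and that in litter 1 was among the closest. Group means were 4244 ± 2647 TPM (SD, n = 6) and 2881 ± 2339 TPM, a log2 ratio averaging 0.60 ± 0.68 (1.52-fold). This difference did not pass the exact permutation test over the 64 swaps of genotype within litters (p = 0.0938), and in limma it had a standard error of 0.23, an unadjusted p of 0.033 and an adjusted p of 0.603. The ratio was 0.38 without litter 2 and 0.75 without litter 5, and its unadjusted p in limma was 0.0593 without litter 2, 0.0905 without litter 4 and 0.0634 without litter 6. With a covariate from 4 Y-linked genes in place of the unlabelled sex, the limma p was 0.0505. Of all genes tested, 5.88% had a larger absolute log2 ratio.

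The level of *Ptgs2* ranged 11-fold over the 12 libraries, the widest range among the members without a 0, and 83.9% of its sum of squares lay between litters. Its rank among all genes was between 7 and 146 in single libraries. After rescaling of all libraries to the same total, litter 5 still had the lowest values (699 and 727 TPM). The principal transcript of *Ptgs2* is nearly unique in sequence, with 4.57% of its 31-base words in another transcript of the gene and 0% in another gene. The genes whose log2 levels most resembled *Ptgs2* over the 12 libraries, of 5774 other genes that averaged 5 TPM or more, were *Csgalnact2* (Pearson r = 0.988), *Lztfl1* (0.982), *Il1a* (0.980), *Il6* (0.980) and *2510009E07Rik* (0.978), where libraries share litters. The same 5 genes had correlations of 0.889 to 0.979 for the log2 ratios of the 6 litters and mean log2 ratios of 0.16 to 0.80. *Il1a* and *Il6* encode inflammatory cytokines.

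*Ptgs2* mRNA is known for AU-rich elements, copies of ATTTA that are found in many short-lived transcripts, in its 3′ untranslated region. The principal transcript (ENSMUST00000035065.8) held 14 copies in the 2445 bases after its stop codon. It was compared with 10783 principal transcripts of the genes tested for genotype, of which 1.72% held at least as many (median 1). The stretch with 4 of them, at bases 12 to 41 after the stop codon, is shown with the copies in capitals, 3 of them overlapping.
Ptgs2 AU-rich stretch: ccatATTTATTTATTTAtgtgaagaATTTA
The other members held fewer copies. *Ptges2*, *Ptges3* and *Pla2g4a* held 4 each, a number that 24.2% of transcripts reach, *Alox5* and *Alox5ap* held 2 each, and *Ptgs1*, *Ptges*, *Lta4h* and *Tbxas1* held 0. Per kb after the stop codon, *Pla2g4a* held 9.03 copies (in 443 bases), more than *Ptgs2* with 5.73, and *Alox5ap* held 4.77. *Ptgs2* and *Pla2g4a* lie 138740 bases apart on opposite strands of chromosome 1, with 3 annotated genes and no protein-coding gene between them, and their log2 levels had r = 0.223 over the 12 libraries.

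*Ptgs1* (ENSMUSG00000047250, chr2:36230426-36252272, plus strand) was at 3.48, 2.86, 0, 5.86, 1.61 and 1.5 TPM in litters 1 to 6 in libraries labelled ErbB4myeKO. The littermates labelled ErbB4FF were at 4.54, 3.9, 0, 5.31, 2.46 and 1.28 TPM. Litter 4 was the highest of both groups, and litter 3, in which the most tested genes were listed at 0, listed *Ptgs1* at 0 in both libraries. Litters accounted for 98.4% of its sum of squares, the largest share among the members. This share includes both zeros of litter 3, and it was not computed without that litter. The library labelled ErbB4myeKO was the higher in 2 litters and the lower in 3, with a log2 ratio averaging -0.15 ± 0.29 (SD, n = 6 litters, exact permutation p = 0.25, limma 95% interval -0.52 to 0.21, adjusted p = 0.764). Without litter 3 the ratio was -0.18 (limma adjusted p = 0.671). With each litter left out in turn it ran from -0.22 (without litter 6, limma adjusted p = 0.797) to -0.09 (without litter 5, limma adjusted p = 0.867). In the 5 other litters, *Ptgs2* exceeded *Ptgs1* by 488 to 2183 times in libraries labelled ErbB4myeKO (median 1263) and by 267 to 1717 times in those labelled ErbB4FF (median 423). Of the 31-base words of the *Ptgs1* transcript, 94.8% also occur in other transcripts of the gene that kallisto could assign reads to, and an antisense gene, *Gm43621*, overlaps its exons.

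**Figure D3:**
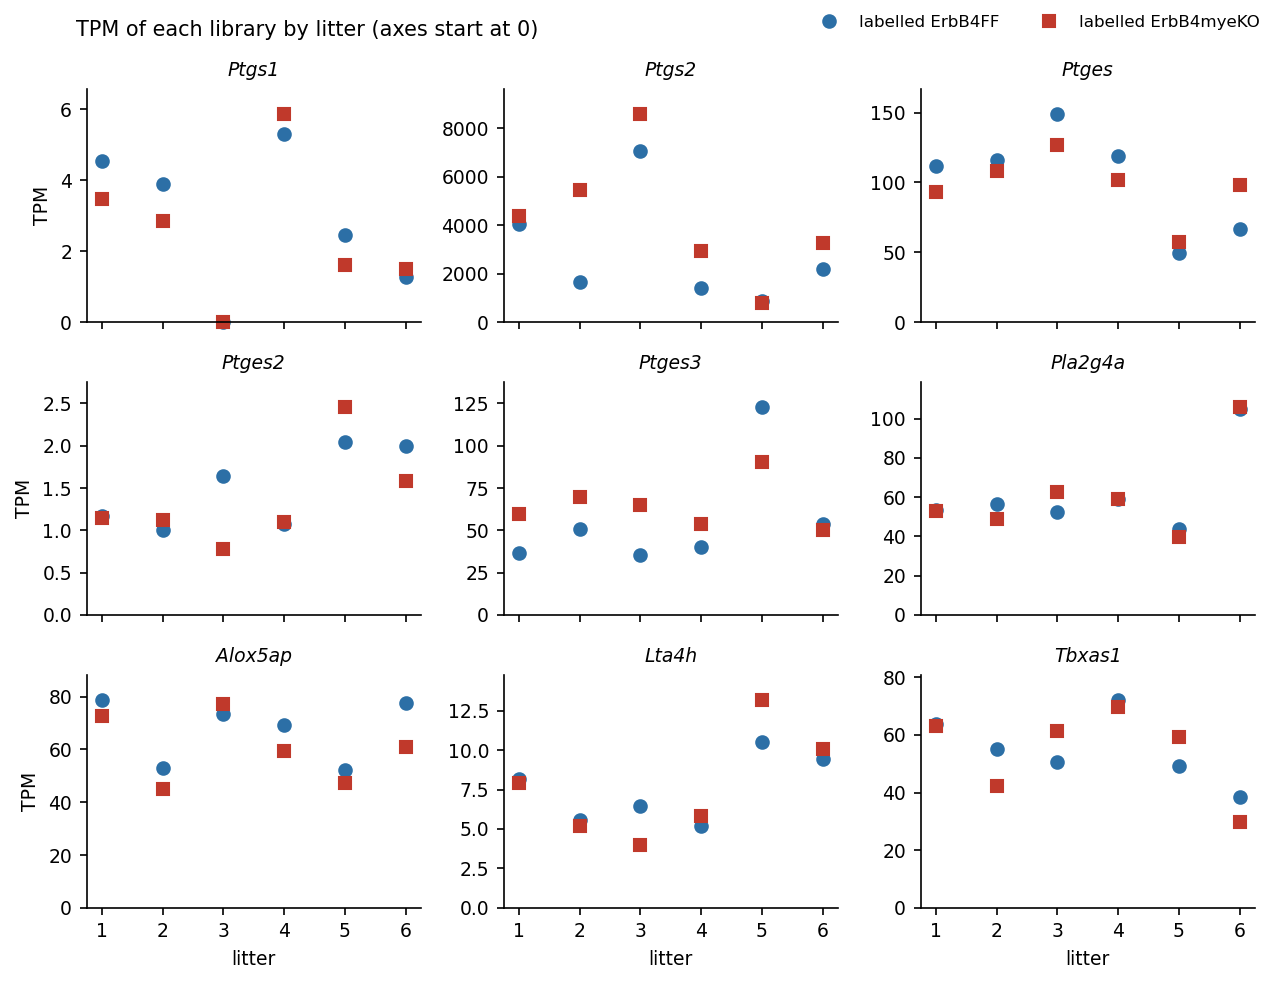
TPM of 9 genes by litter, with libraries labelled ErbB4FF as blue circles and those labelled ErbB4myeKO as red squares, on axes that start at 0. Littermates lie near each other for *Pla2g4a* and *Ptgs1*, litter 5 has the lowest *Ptgs2* and *Ptges* and the highest *Ptges3*, *Ptges2* and *Lta4h* (the last 2 not in libraries labelled ErbB4FF once rescaled to the same total), and litter 6 has the highest *Pla2g4a*.

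*Ptges*, *Ptges2* and *Ptges3* encode synthases that convert prostaglandin H to prostaglandin E. The product of *Ptges* is the inducible microsomal enzyme, and that of *Ptges3*, also known as p23, is a cytosolic enzyme and a cochaperone of Hsp90. *Ptges* (ENSMUSG00000050737, chr2:30889471-30929863, minus strand) was the highest of the 3 in every library but those of litter 5, at 57.7 to 127 TPM (median 100) in those labelled ErbB4myeKO and at 49.4 to 149 TPM (median 114) in those labelled ErbB4FF. The groups overlapped throughout, and the library labelled ErbB4myeKO was the higher in litters 5 and 6 and the lower in the other 4. The log2 ratio averaged -0.01 ± 0.33 (SD, n = 6 litters, exact permutation p = 0.969, limma 95% interval -0.29 to 0.27, adjusted p = 0.99).

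*Ptges3* (ENSMUSG00000071072, chr10:128058954-128077272, plus strand) was at 59.4, 70, 64.8, 53.9, 90.4 and 50 TPM in litters 1 to 6 in libraries labelled ErbB4myeKO. In the littermates labelled ErbB4FF it was at 36.9, 50.7, 35.6, 40.1, 123 and 54 TPM. In litters 1 to 4 the library labelled ErbB4myeKO was the higher, by 0.42 to 0.85 on the log2 scale, and in litters 5 and 6 it was the lower, so the groups overlapped. The log2 ratio averaged 0.31 ± 0.49 (SD, n = 6 litters, exact permutation p = 0.219, limma 95% interval -0.09 to 0.71, adjusted p = 0.629). Without litter 5, whose library labelled ErbB4FF held 123 TPM, the ratio was 0.46 (limma adjusted p = 0.499, unadjusted 0.0146). It was 0.20 without litter 3 (limma adjusted p = 0.672, unadjusted 0.275) and 0.24 without litter 1 (limma adjusted p = 0.694, unadjusted 0.25). With the covariate from 4 Y-linked genes it was 0.40 (limma adjusted p = 0.652, unadjusted 0.0399). The principal transcripts of litter 5 also took the largest share of all TPM, and after rescaling to the same total its *Ptges3* levels were still the highest, at 80.4 and 105 TPM. In the *Ptges3* transcript, 23.5% of 31-base words recur in other genes, above all in the pseudogene *Ptges3-ps*, which makes its level uncertain.

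*Ptges2* (ENSMUSG00000026820, chr2:32395896-32405772, plus strand) was the lowest of the 3, at 0.783 to 2.46 TPM (median 1.13) in libraries labelled ErbB4myeKO and at 1.01 to 2.04 TPM (median 1.4) in those labelled ErbB4FF. The ratio of *Ptges* to *Ptges3* ran from 0.638 to 1.97 (median 1.73) in libraries labelled ErbB4myeKO and from 0.402 to 4.19 (median 2.63) in those labelled ErbB4FF. *Ptges2* was highest in litter 5, at 2.46 and 2.04 TPM, but after rescaling to the same total litter 6 was the highest of those labelled ErbB4FF (2.03 TPM, against 1.74 TPM in litter 5). Its log2 ratio averaged -0.11 ± 0.34 (SD, n = 6 litters, exact permutation p = 0.594, limma 95% interval -0.55 to 0.32, adjusted p = 0.862).

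The 2 genes of the prostaglandin E route that are usually induced together, *Ptgs2* and *Ptges*, had r = 0.737 over the 12 libraries, where libraries share litters. By likeness to *Ptgs2*, *Ptges* took rank 765 of the 5774 other genes. The within-litter log2 ratios of the 2 genes had opposite signs in litters 1 to 5 and were both positive in litter 6 (0.57 for *Ptgs2* and 0.56 for *Ptges*). In litter 2 they were 1.72 for *Ptgs2* and -0.10 for *Ptges*. *Ptgs2* exceeded *Ptges* by 13.6 to 67.7 times in libraries labelled ErbB4myeKO (median 40.2) and by 11.9 to 47.6 times in those labelled ErbB4FF (median 25.2). The genes most like *Ptges* were *Phf3* (r = 0.973), *Arhgap31* (0.957), *Ap1g1* (0.957), *Nktr* (0.957) and *Arid2* (0.948). Their Spearman correlations over the 12 libraries were lower, at 0.825 to 0.888. Over the log2 ratios of the 6 litters, their Pearson correlations were 0.815 to 0.941.

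*Tbxas1* (ENSMUSG00000029925, chr6:38875404-39084585, plus strand) encodes thromboxane A synthase, which is also abundant in platelets. It was at 29.8 to 69.6 TPM (median 60.2) in libraries labelled ErbB4myeKO and at 38.5 to 72.2 TPM (median 52.9) in those labelled ErbB4FF. Litter 4 was the highest and litter 6 the lowest of both groups, and the groups overlapped. The library labelled ErbB4myeKO was the higher in litters 3 and 5, with a log2 ratio averaging -0.05 ± 0.29 (SD, n = 6 litters, exact permutation p = 0.656, limma 95% interval -0.30 to 0.21, adjusted p = 0.902). Of the 8 platelet markers, *Pf4* alone passed the filter, at 4.78 to 45.7 TPM.

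On the leukotriene side, *Alox5* (ENSMUSG00000025701, chr6:116410077-116461178, minus strand), which encodes 5-lipoxygenase, was listed at 0 TPM in all 12 libraries, so no ratio can be given. Only 1 of its 8 annotated transcripts was in the table, and 91.3% of the 31-base words of that transcript also occur in the others, to which reads could have been assigned. The value therefore describes this isoform and not the gene. *Ltc4s*, which makes leukotriene C, was above 0 in 1 library (0.902 TPM), and was chosen after its values were seen.

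*Alox5ap* (ENSMUSG00000060063, chr5:149264767-149288153, plus strand) encodes the activating protein that presents arachidonic acid to 5-lipoxygenase. It was at 72.7, 45, 77.2, 59.4, 47.3 and 60.8 TPM in litters 1 to 6 in libraries labelled ErbB4myeKO and at 78.8, 53, 73.2, 69.1, 52.1 and 77.4 TPM in the littermates labelled ErbB4FF. The library labelled ErbB4myeKO was the lower in 5 of 6 litters, all but litter 3, and the groups overlapped. Group means were 60.4 ± 13 TPM (SD, n = 6) and 67.2 ± 11.9 TPM, a log2 ratio averaging -0.16 ± 0.14. It did not pass the exact permutation test (p = 0.0625), and in limma it had a standard error of 0.07, an unadjusted p of 0.0496 and an adjusted p of 0.603. Leaving out 1 litter moved the ratio between -0.21 (without litter 3, limma adjusted p = 0.515) and -0.12 (without litter 6, limma adjusted p = 0.774), and the unadjusted p was above 0.05 when any 1 of litters 1, 2, 4, 5 and 6 was left out. It was also above 0.05 with the covariate from 4 Y-linked genes (0.103), with all libraries rescaled to the same total (0.0841) and in limma without trend (0.0885). An antisense gene, *Gm19719*, shares 10.7% of the 31-base words of the transcript. *Alox5ap* is also expressed by neutrophils and mast cells. The summed level of the neutrophil markers was 64.4 to 418 TPM in libraries labelled ErbB4myeKO and 65.8 to 235 TPM in those labelled ErbB4FF. That of the 11 mast cell and basophil markers was 11.5 to 42 TPM and 20.6 to 47.9 TPM, nearly all of it from *Hdc*. Of these markers, 6 were at 0 in every library, and *Kit*, *Cpa3*, *Prss34* and *Mcpt8* had means of 0.036, 0.0728, 0.293 and 0.794 TPM. *Hdc* was lower in the library labelled ErbB4myeKO in 6 of 6 litters (mean log2 ratio -0.40, exact permutation p = 0.0312, limma adjusted p = 0.603). Of the 6 neutrophil markers that passed the filter, 3 had a positive and 3 a negative mean log2 ratio. Those that did not pass had means of 0.0605 TPM (*Elane*), 0.0913 TPM (*Ly6g*), 0.121 TPM (*Mpo*), 0.127 TPM (*Cxcr2*), 0.317 TPM (*Ltf*) and 0 TPM (*Retnlg*) over the 12 libraries. *Camp*, chosen after its values were seen, was higher in the library labelled ErbB4myeKO in 6 of 6 litters (mean log2 ratio 0.45, limma adjusted p = 0.603, unadjusted 0.0369), *S100a8* was higher in 4 of 6 (0.30, limma adjusted p = 0.68), *S100a9* in 3 of 6 (-0.24, limma adjusted p = 0.877) and *Csf3r* in 1 of 6 (-0.43, limma adjusted p = 0.603). The part of these cells in the *Alox5ap* level was not tested.

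Among the genes whose levels were most like those of *Alox5ap* over the 12 libraries were *Tgfbi* (r = 0.863), *Edn1* (0.857), *Smpdl3a* (0.843) and *Atp6ap2* (0.839), and the correlations of these 4 over the log2 ratios of the 6 litters ran from -0.386 to 0.944. *Lta4h* (ENSMUSG00000015889, chr10:93453411-93484875, plus strand) encodes leukotriene A hydrolase. It was at 3.96 to 13.2 TPM (median 6.87) in libraries labelled ErbB4myeKO and at 5.19 to 10.5 TPM (median 7.32) in those labelled ErbB4FF. Litter 5 was the highest of both groups as deposited, but after rescaling to the same total litter 6 was the highest of those labelled ErbB4FF (9.57 TPM, against 8.91 TPM in litter 5), and each group was the higher in 3 litters. The log2 ratio averaged -0.04 ± 0.33 (SD, n = 6 litters, exact permutation p = 0.844, limma 95% interval -0.35 to 0.28, adjusted p = 0.941). The ratio of *Alox5ap* to *Lta4h* ran from 3.57 to 19.5 in libraries labelled ErbB4myeKO (median 8.93) and from 4.98 to 13.3 in those labelled ErbB4FF (median 9.55).

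The rest of the eicosanoid pathway was described with 73 further genes, of which 36 passed the filter and 9 were at 0 in every library. Of the 36, 21 had a positive and 15 a negative mean log2 ratio, 2 (5.56%) had an unadjusted p under 0.05, against 8.21% of all genes tested, and none passed the adjusted threshold. The median log2 ratio was 0.02. *Ptger2*, which encodes the EP2 receptor of prostaglandin E, was higher in the library labelled ErbB4myeKO in 6 of 6 litters. It was at 6.12, 4.13, 6.8, 2.52, 2.14 and 7.78 TPM in litters 1 to 6 in libraries labelled ErbB4myeKO and at 4.98, 2.47, 5.54, 1.69, 1.82 and 6.16 TPM in the littermates labelled ErbB4FF. The groups overlapped, and the log2 ratio averaged 0.36 ± 0.17 (SD, n = 6 litters, exact permutation p = 0.0312, limma adjusted p = 0.603, unadjusted 0.0124). With each litter left out in turn its ratio was between 0.30 and 0.39, with unadjusted limma values of 0.0152 to 0.0378 for p. All 4 prostanoid receptors that passed the filter had a mean ratio of 0 or above (3 of 4 after rescaling by median ratios), among them *Ptger4*, the EP4 receptor of prostaglandin E (23.8 ± 11.4 and 19.9 ± 8.17 TPM, SD, n = 6), and *Ppard* (12.4 ± 4.98 and 12 ± 2.72 TPM), which differed by 0.17 and 0.00 (limma adjusted p = 0.714 and 0.996).

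*Cotl1*, which encodes coactosin-like protein, a binding partner of 5-lipoxygenase, was the other pathway gene with an unadjusted p under 0.05. It was at 127, 71, 85.4, 132, 226 and 170 TPM in litters 1 to 6 in libraries labelled ErbB4myeKO and at 117, 117, 113, 154, 219 and 290 TPM in the littermates labelled ErbB4FF. It was the lower in the library labelled ErbB4myeKO in 4 of 6 litters, with a log2 ratio averaging -0.32 ± 0.38 (SD, n = 6 litters, exact permutation p = 0.125, limma adjusted p = 0.603, unadjusted 0.0426). With each litter left out in turn its ratio was between -0.41 and -0.23, and its unadjusted p in limma was above 0.05 in 4 of the 6 cases. Among the other lists, no gene had an unadjusted p under 0.05. Of 23 other phospholipases and acyltransferases, 10 passed the filter (5 with a positive and 5 with a negative ratio, or 4 and 6 after rescaling by median ratios), led by *Pla2g7*, which encodes the hydrolase of platelet-activating factor (498 ± 130 and 467 ± 110 TPM, SD, n = 6), and *Plaa* (36.2 ± 5.85 and 34.3 ± 4.65 TPM). Of 7 other prostanoid synthases and reductases, 4 passed the filter, all with a negative ratio under both rescalings too (median -0.16). The highest were *Akr1b3*, an aldose reductase that also makes prostaglandin F (84.6 ± 22.9 and 89.4 ± 30 TPM), and *Hpgds*, the hematopoietic prostaglandin D synthase (14.7 ± 4.73 and 16.4 ± 4.45 TPM), while *Ptgds*, the other prostaglandin D synthase, was at 0 in every library (chosen after its values were seen).

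Of 13 other lipoxygenases and leukotriene enzymes, 4 passed the filter, and *Dpep2*, a dipeptidase that trims leukotriene D, was the highest after *Cotl1* (40.7 ± 21.9 and 46.8 ± 26 TPM, SD, n = 6). Of 7 leukotriene and lipoxin receptors, 3 passed, led by *Fpr2*, a formyl peptide receptor that also binds lipoxin A (621 ± 180 and 581 ± 193 TPM), and *Cysltr1* (4.75 ± 2.56 and 5.41 ± 2.82 TPM). Of 12 genes of transport and breakdown, 11 passed, 8 with a positive and 3 with a negative ratio (7 and 4 after rescaling by median ratios), and the highest were the transporters *Slco3a1* (154 ± 36.4 and 148 ± 37 TPM) and *Abcc1* (112 ± 46.3 and 91.1 ± 47.6 TPM). The first value of each pair is that of the libraries labelled ErbB4myeKO.

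**Figure D4:**
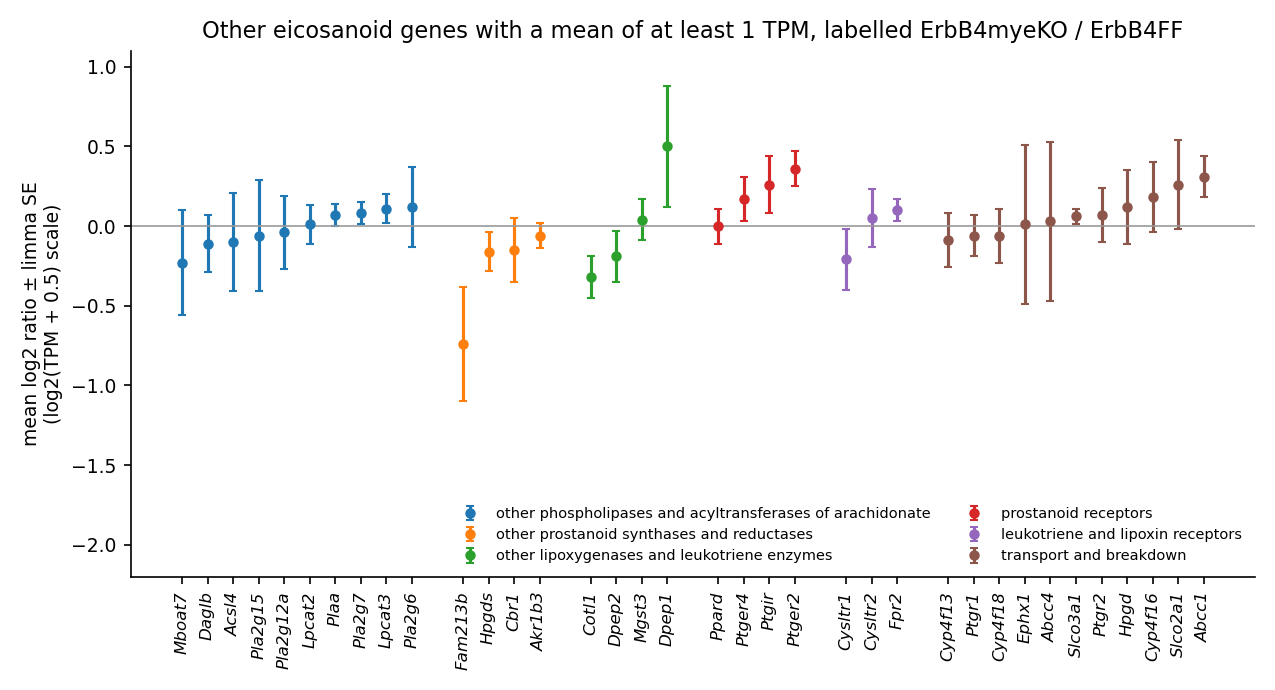
Mean log2 ratio of the library labelled ErbB4myeKO to its littermate labelled ErbB4FF (n = 6 litters, log2(TPM + 0.5) scale) for 36 other eicosanoid genes that averaged 1 TPM or more, by list. Bars are the limma standard error. *Ptger2* (0.36) and *Cotl1* (-0.32) are the 2 genes with an unadjusted p under 0.05, *Fam213b* (-0.74, chosen after its values were seen) lies furthest from 0, and none of the 36 passed an adjusted p under 0.05.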

How the data were processed

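Reads of M1-activated BM-Mɸs were pseudoaligned to the mouse transcriptome by the authors with kallisto, who deposited TPM for the principal isoforms of the APPRIS annotation. The versions of kallisto and sleuth and the release of the transcriptome were not given in the sources used here. The deposited table also holds sleuth's mean natural log of normalized estimated counts, read here but not tested, and p-values, q-values and log2 ratios of the authors' own comparison, which were not used. The table does not hold the read count of each library, so precision rests on the spread between litters.

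Of 29213 lines, 28808 were separate transcripts. Values of a gene's transcripts were added, 0.5 was added, and log2 values of the 8780 genes that averaged 1 TPM or more went into limma 3.58.1 in R 4.3.3 (trend, litter as a block, Benjamini-Hochberg adjustment over all genes), since the values are not counts. A fold change on this scale understates the change of low genes. The study adjusted for litter and sex, and sex was not on the labels. Single genes were also compared by an exact two-sided permutation test over the 64 swaps of genotype within litters. The litter is the number on the labels, which also give each pair its own batch letter. Deviations from the gene means correlated between littermates at r = 0.273 to 0.774.

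GENCODE M21 (GRCm38) gave positions and shared 31-base words, and RefSeq gave promoters for 9 of 10 members. Python 3.11.15 was used for these steps, and the fit was tested on simulated data. The members, the pathway and marker lists and the tests were chosen with earlier results of these data known. Pathway genes named are the 2 highest of each list and those among its 3 smallest p with p under 0.05. Markers named are among the 3 highest or at 0 in every library, with several marker lists given by their summed level alone. All neutrophil, mast cell and basophil markers under the filter are named too, a choice made after their values were seen. The 5 genes most like *Ptgs2*, *Ptges* and *Alox5ap* are named, except 1 that is not reported here. Alternatives were other pseudocounts (0.1, 1), other filters (none, 5 TPM), 2 rescalings, limma without trend, no block, a covariate from 4 Y-linked genes, the highest transcript alone and each litter left out.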

Additional observations from a re-analysis of the deposited data

Results flagged for a closer look

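The log2(TPM + 0.5) values of the 9 members above 0 TPM in each group of 6 libraries, and their log2 ratios over the 6 litters, were screened for a value far from the others, one whose gap to its nearest neighbour took a larger part of the range than Dixon's 95% critical value for 6 values. Of 27 such sets, 2 held one, and chance alone marks about 1 in 20. *Ptges3* stood apart at 6.95 in the library of litter 5 labelled ErbB4FF (123 TPM, a gap of 0.665 of the range), and *Pla2g4a* at 6.72 in the library of litter 6 labelled ErbB4FF (105 TPM, 0.657 of the range). In each case the littermate labelled ErbB4myeKO was the highest of its own group too, at 90.4 TPM for *Ptges3* and 106 TPM for *Pla2g4a*. After rescaling of all libraries to the same total the values of these litters were 80.4 and 105 TPM for *Ptges3* and 111 and 107 TPM for *Pla2g4a*, ErbB4myeKO first, and still the highest.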

How the results depend on the processing

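Of 142 log2 ratios of the 9 members under the alternatives, 130 kept their direction, 12 turned, and none passed an adjusted p under 0.05 in limma (smallest 0.499). Those that turned lay near 0. With all libraries rescaled to the same total, *Ptges* had 0.01 and *Pla2g4a* 0.00. With 1 litter left out at a time, ratios ran from -0.12 to 0.05 for *Ptges*, -0.18 to 0.01 for *Ptges2*, -0.07 to 0.02 for *Pla2g4a*, -0.11 to 0.08 for *Lta4h* and -0.11 to 0.02 for *Tbxas1*. They kept their sign for *Ptgs2* (0.38 to 0.75), *Ptges3* (0.20 to 0.46), *Alox5ap* (-0.21 to -0.12) and *Ptgs1* (-0.22 to -0.09). The count of all genes with an adjusted p under 0.05 was 0 in every setting except without litter 3, where it was 1. The count with an unadjusted p under 0.05 was 721 with the litter block and 75 with no replicate block, and ran from 413 to 864 with a litter left out (413 without litter 2, 458 without litter 4). With no replicate block the ratio of *Ptgs2* stayed at 0.60 with a standard error of 0.59 in place of 0.23 (limma adjusted p = 1). The causes of these shifts were not tested. No scaling moved the median of all genes by more than 0.02 on the log2 scale. A filter at 5 TPM removed *Ptgs1* and *Ptges2*, and neighbours in the order of levels, of which 0 of 9 passed with any pseudocount, were not compared with a litter left out, where no p under 0.0625 is possible. The table gives no read count per library, so the zeros of *Alox5* and *Ptgs1* cannot be set against a detection limit.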
